A study of Mus musculus with 8 samples.

Results

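Small T cell clones were examined in single-cell T cell receptor (TCR) sequencing of brain immune cells from mice with traumatic brain injury. A small clone was a deposited clonotype, a set of cells given the same receptor, that held 2 to 9 cells in its own library. The rule selected 204 of 1693 clonotypes (12.0%), and these held 607 of 2986 cells (20.3%). The other cells belonged to 1467 clonotypes seen in a single cell and to 22 clones of 10 or more cells, which held 912 cells. The members were chosen by their measured size, so their number and size are a description and not a test. Male C57BL/6 mice received a controlled cortical impact at 13 to 15 weeks (young, YTBI) or 80 to 82 weeks (aged, ATBI) of age. They were then given 300 µg of the CD49d-blocking antibody PS/2 (aCD49d) or of an isotype control antibody (Isotype), repeated every 2 weeks. Brains were taken 2 months after the injury and cells with CD45, a surface protein of immune cells, were sorted, so every group was injured and no uninjured group entered these libraries. Each of YTBI_Isotype, YTBI_aCD49d, ATBI_Isotype and ATBI_aCD49d was 1 library made from 2 pooled mice, with about 5000 cells loaded on the chip. With 1 library per group, mouse-to-mouse variation cannot be told apart from age and treatment, and no difference below was tested. The aged mice were supplied by the National Institute on Aging and the young ones by Jackson Laboratory. Age therefore cannot be told apart from the source of the mice. Intervals are 95% exact Clopper-Pearson intervals for shares and Newcombe intervals for differences. Both cover counting error alone and treat cells as independent, which cells of 1 clone are not.

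Each T cell builds its alpha and beta receptor chains by joining germline segments, V and J for the alpha chain and V, D and J for the beta chain. Bases are trimmed and added at the joints, so the junction, called CDR3, differs between cells that arose separately and is shared by the descendants of 1 cell. CDR3 lies over the peptide when the receptor binds its ligand, and a group of cells with the same CDR3 pair is read as a clone that divided. CD49d, the alpha4 integrin subunit, helps lymphocytes leave blood vessels, including those of the brain. The TCR libraries hold receptors alone, and every barcode carried an assembled alpha or beta chain. Transcriptome libraries of the same groups exist, but no CD4, CD8 or activation marker was checked in them. A step in which receptors were kept only for cells with a T cell transcriptome was not repeated, and the transcriptomes were not analysed here.

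The largest small clone of each library is shown by its CDR3 nucleotides because the junction is what defines the clone. Bases in capitals match neither the germline V end nor the germline J start of that chain, so they hold the D segment of the beta chain and added bases. The capitals were placed by matching to V and J segments of the GRCm38 (mm10) reference.
YTBI_Isotype clonotype 1 beta: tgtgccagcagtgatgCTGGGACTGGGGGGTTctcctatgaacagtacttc
YTBI_Isotype clonotype 1 alpha: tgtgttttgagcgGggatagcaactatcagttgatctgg
YTBI_aCD49d clonotype 3 beta: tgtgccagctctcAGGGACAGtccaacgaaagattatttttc
YTBI_aCD49d clonotype 3 alpha: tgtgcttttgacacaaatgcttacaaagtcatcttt
ATBI_Isotype clonotype 10 beta: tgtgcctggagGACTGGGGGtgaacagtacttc
ATBI_Isotype clonotype 10 alpha: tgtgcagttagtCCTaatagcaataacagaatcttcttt
ATBI_aCD49d clonotype 12 beta: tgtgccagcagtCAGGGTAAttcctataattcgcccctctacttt
ATBI_aCD49d clonotype 12 alpha: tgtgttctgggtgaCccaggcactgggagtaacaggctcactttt

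In the order shown, these clones held 7, 7, 8 and 9 cells. That is 2.67% (1.08 to 5.43%), 1.21% (0.489 to 2.48%), 0.781% (0.338 to 1.53%) and 0.801% (0.367 to 1.52%) of their libraries. The 4 beta chains joined TRBV13-3 to TRBJ2-7, TRBV12-1 to TRBJ1-4, TRBV31 to TRBJ2-7 and TRBV13-3 to TRBJ1-6. ATBI_Isotype had a second clone of 8 cells, with TRBV1 and TRBJ1-6. Just outside the limit, the smallest clones of 10 or more cells held 10 cells in YTBI_aCD49d, 11 in ATBI_Isotype and 12 in ATBI_aCD49d, and YTBI_Isotype had none.

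Small clones took up 18.9 to 21.3% of the cells in every library as deposited, and a larger share of the clonotypes in the aged ones. YTBI_Isotype had 18 small clones with 50 of its 262 cells, which is 19.1% (14.5 to 24.4%). YTBI_aCD49d had 37 with 109 of 577 cells, or 18.9% (15.8 to 22.3%). ATBI_Isotype had 78 with 218 of 1024 cells, or 21.3% (18.8 to 23.9%), and ATBI_aCD49d had 71 with 230 of 1123 cells, or 20.5% (18.2 to 23.0%). The 4 intervals overlapped. Isotype and aCD49d differed by 0.808 percentage points in the aged libraries (-2.69 to 4.32) and by 0.193 points in the young ones (-5.53 to 6.33). The aged library exceeded the young one by 2.21 points under Isotype (-3.63 to 7.49) and by 1.59 points under aCD49d (-2.56 to 5.57), so all of these intervals included 0. The share in ATBI_Isotype moved with the cells counted. Without clonotypes that carry the deposited evidence of invariant receptors, of natural killer T or mucosal-associated invariant T cells, the shares were 18.4, 18.997, 26.9 and 18.2% in the same order of libraries. This setting removed 18 of the 78 small clones of ATBI_Isotype but also 3 of its 9 clones of 10 or more cells with 204 of its cells, against 2 of 11 with 58 cells in ATBI_aCD49d, so the total fell too. The aged difference was then 8.74 points and aged minus young under Isotype 8.54 points. The evidence was filled for 62 of 204 small clones and 5 of 22 clones of 10 or more cells. The natural killer T alpha chain, TRAV11 with TRAJ18, was in 5 small clones and 0 of the 22. The evidence was thus wider than that chain, and these values do not show what invariant T cells alone contribute.

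Counted as clonotypes, small clones were 7.83% of 230 in YTBI_Isotype (4.70 to 12.1%) and 7.97% of 464 in YTBI_aCD49d (5.68 to 10.8%). They were 17.0% of 460 in ATBI_Isotype (13.6 to 20.7%) and 13.2% of 539 in ATBI_aCD49d (10.4 to 16.3%). The aged shares were higher by 9.13 points under Isotype (3.73 to 14.01) and by 5.20 points under aCD49d (1.25 to 9.10), while the aged pair differed by 3.78 points (-0.790 to 8.43). Put another way, there were 8.49 and 8.71 small clones for every 100 single-cell clonotypes in the young libraries and 20.9 and 15.5 in the aged ones. These shares changed at equal cell number. At 262 cells drawn from each library, the expected small clones were 7.83, 6.68, 10.5 and 11.3% of the expected clonotypes, aged minus young was 2.65 points under Isotype and 4.66 under aCD49d, and the aged Isotype minus aCD49d difference was -0.867 points.

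The clones of 10 or more cells bear on these shares, since they held 0 cells in YTBI_Isotype, of 262 (exact upper bound 1.40%), against 7.45%, 42.3% and 38.8% of cells in YTBI_aCD49d, ATBI_Isotype and ATBI_aCD49d. Among the cells outside them, small clones held 19.1% (14.5 to 24.4%) and 20.4% (17.1 to 24.1%) in the young libraries and 36.9% (33.0 to 40.9%) and 33.5% (29.95 to 37.1%) in the aged ones. The aged library was higher by 17.8 points under Isotype (11.2 to 23.9) and by 13.1 points under aCD49d (7.98 to 18.03). At 262 cells per library the expected shares were 19.1, 15.8, 25.3 and 28.1%, so aged minus young was 6.20 points under Isotype and 12.3 under aCD49d, and Isotype minus aCD49d in the aged pair was -2.84 points. Isotype minus aCD49d was 3.41 points in the aged pair (-1.95 to 8.76) and -1.33 points in the young pair (-7.19 to 4.93). Among clonal cells, those of clones with at least 2 cells, small clones made up 100% and 71.7% in the young Isotype and aCD49d libraries and 33.5% and 34.5% in the aged ones.

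**Figure D1:**
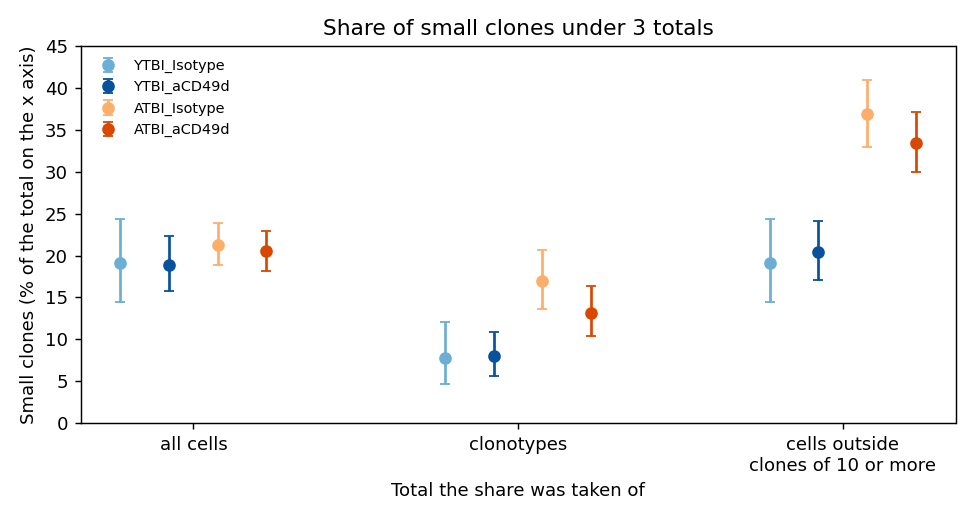
Share of small clones (y axis, percent) in each of the 4 libraries, taken of all cells, of clonotypes and of the cells outside clones of 10 or more, with exact 95% intervals as bars. The libraries lie between 18.9 and 21.3% of all cells, and the aged libraries lie above the young ones under the other totals.

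Pairs of cells were the most frequent small clone in every library. Clones of 2 cells were 10 of 18 in YTBI_Isotype (55.6%), 21 of 37 in YTBI_aCD49d (56.8%), 47 of 78 in ATBI_Isotype (60.3%) and 42 of 71 in ATBI_aCD49d (59.2%). The median was 2 cells in each library, and the mean was 2.78 ± 1.26 (SD over clones), 2.95 ± 1.41, 2.79 ± 1.37 and 3.24 ± 1.88 cells in the same order. Above this size the aged libraries had equal counts at 4 cells (7 each) and at 8 cells (2 each). The counts differed at the other sizes, and no rule named the sizes given next. Clones of 3 cells were 17 (21.8%) in ATBI_Isotype and 7 (9.86%) in ATBI_aCD49d, a difference of 11.9 points (-0.779 to 24.2), whereas clones of 5 to 9 cells were 7 (8.97%) and 15 (21.1%). The difference in the share with 5 to 9 cells was -12.2 points (-24.6 to 0.179) for Isotype minus aCD49d, and in the young pair, with 1 of 18 and 7 of 37 clones, it was -13.4 points (-30.5 to 11.0). All of these intervals included 0, and the young pair differed in the same direction at 3 cells and at 5 to 9 cells.

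**Figure D2:**
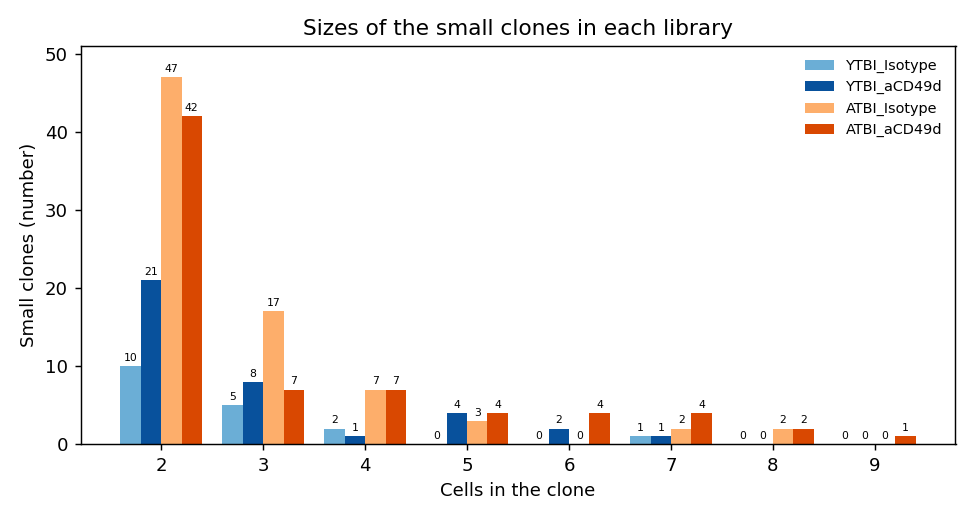
Number of small clones (y axis) by cells in the clone (x axis) for the 4 libraries, with the count above each bar. Clones of 2 cells lead in every library, with 10, 21, 47 and 42, and the single clone of 9 cells is in ATBI_aCD49d.

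The libraries differ in the number of cells sampled, so small clones were also counted at equal cell number. When every library was thinned to the 262 cells of YTBI_Isotype, the exact expectation was 18 small clones there, 14.98 in YTBI_aCD49d (SD over draws 2.46), 15.3 in ATBI_Isotype (2.84) and 17.6 in ATBI_aCD49d (2.84). The expected share of cells in them was 19.1, 14.9, 16.3 and 19.9%. At this number the 4 libraries lay within 3.02 clones of each other, against a range of 18 to 78 as deposited. Isotype minus aCD49d was -2.33 clones in the aged pair and 3.02 in the young pair. The clones counted changed with thinning. In the aged libraries 3.99 and 5.82 of the expected small clones were deposited clones of 10 or more cells that fell below 10, and 14.5% and 16.6% of the deposited small clones were expected to keep at least 2 cells, against 37.8% in YTBI_aCD49d. When 1024 cells, the size of ATBI_Isotype, were drawn from ATBI_aCD49d, 63.9 small clones were expected (SD 2.41), with 19.96% of cells. ATBI_Isotype had 78 at that number. Other definitions of a clone were counted without thinning, on 1024 cells of ATBI_Isotype and 1123 of ATBI_aCD49d. The order of the aged libraries under them at equal cell number was therefore not determined. Over all their cells, ATBI_Isotype had 75 small clones and ATBI_aCD49d 78 when cells were joined by identical segments and nucleotides in both chains, and 76 and 79 when joined by translated CDR3 pairs.

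**Figure D3:**
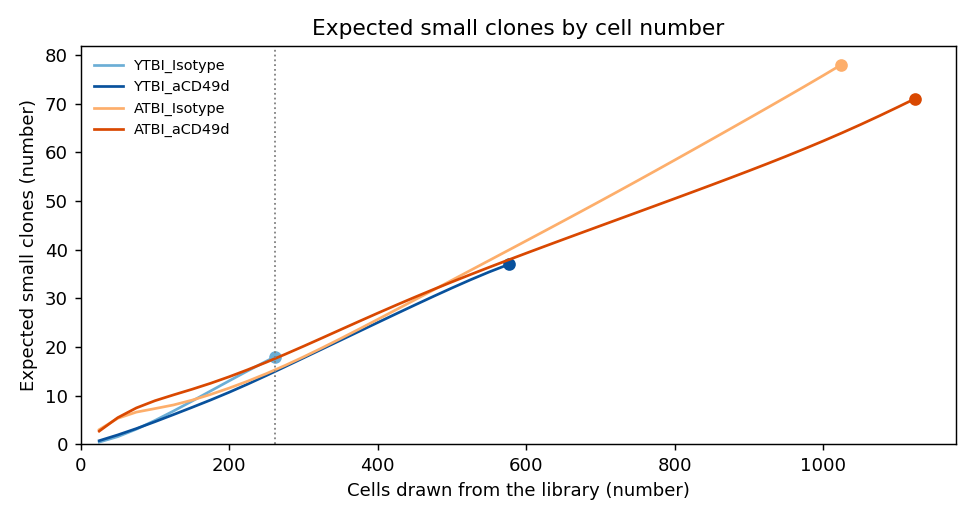
Expected number of small clones (y axis) by the number of cells drawn from each library (x axis). Filled points are the deposited libraries and the dotted line marks 262 cells, where the curves lie between 14.98 and 18 clones.

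An alpha and a beta chain were each recovered in most small clones. Of the 204, 166 had 1 alpha and 1 beta chain, 19 had 1 beta with at least 2 alphas, 5 had 2 betas, 12 had a beta alone and 2 an alpha alone. A second productive alpha chain is common in T cells because both alleles can rearrange, and a second beta is rarer. Cells with 2 betas numbered 1, 0, 3 and 6 among the small-clone cells of YTBI_Isotype, YTBI_aCD49d, ATBI_Isotype and ATBI_aCD49d. No doublet caller was run, since the tables used hold receptor chains alone and the transcriptomes were not analysed.

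Recovery of the alpha chain differed between the aged libraries. Both chains were found in 40 of 50 small-clone cells in YTBI_Isotype (80%), 84 of 109 in YTBI_aCD49d (77.1%), 156 of 218 in ATBI_Isotype (71.6%, 65.1 to 77.4%) and 191 of 230 in ATBI_aCD49d (83.0%, 77.6 to 87.7%). ATBI_Isotype was lower than ATBI_aCD49d by 11.5 points (interval of Isotype minus aCD49d -19.4 to -3.44). The alpha chain was found in every cell of 11 of 16, 20 of 36, 42 of 71 and 55 of 69 small clones that had an alpha, and the aged difference was -20.6 points (-35.7 to -4.34). The beta chain was found in every cell of 18 of 18, 36 of 37, 73 of 77 and 66 of 70 small clones with a beta, so the libraries differed mainly in the alpha. Depth moved with this: median TCR molecules (unique molecular identifiers, UMIs) per small-clone cell were 14.5, 12, 10 and 15, and 19.4% of small-clone alpha chains in ATBI_Isotype rested on 1 UMI against 7.32% in ATBI_aCD49d. Cells of single-cell clonotypes differed likewise, with both chains in 67.8% and 82.3% in the aged libraries. The part of depth in the difference was not tested. Cell Ranger split 8, 22, 39 and 24 small clones into more than 1 exact subclonotype.

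The beta chains of small clones drew on many V genes, with none in the lead in every library. The 18, 37, 77 and 70 small clones with a beta used 13, 16, 20 and 20 TRBV names of the tables. The most frequent name was TRBV12-2+TRBV13-2, in 20 clones (9.90%, against 12.98% of single-cell clonotypes). It is a joint name in the deposited tables. In all 208 clonotypes of the series that carry the name, the bases just before the CDR3 matched TRBV13-2 and not TRBV12-2. TRBV13-2 lies at chr6:41121396-41121832 on the plus strand of GRCm38. These shares leave out clonotypes named TRBV13-2 alone, 1 small clone (0.495%) and 40 single-cell clonotypes (2.81%). TRBV13-1 (chr6:41116007-41116468) followed with 16 clones (7.92%, against 7.86%). TRBV16 (chr6:41151740-41152230), TRBV19 (chr6:41178375-41179048) and TRBV3 (chr6:41048290-41048828) were tied with 14 each (6.93%, against 6.18, 6.74 and 7.65% of single-cell clonotypes). The annotation lists all of these as V genes and not as pseudogenes, and all lie on the plus strand of the beta chain locus.

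By library, the joint name was in 2, 4, 5 and 9 small clones in the order YTBI_Isotype, YTBI_aCD49d, ATBI_Isotype and ATBI_aCD49d. TRBV13-2 under its own name was in 1 further small clone, in ATBI_aCD49d. TRBV13-1 was in 2, 7, 1 and 6, so its share was lowest in ATBI_Isotype. TRBV16 was in 0, 2, 8 and 4, TRBV19 in 1, 4, 4 and 5, and TRBV3 in 0, 4, 6 and 4. With each name of the tables counted on its own, the largest differences between the aged libraries were in TRBV12-2, with 3 clones in ATBI_Isotype and 8 in ATBI_aCD49d (-7.53 points, -17.9 to 1.98), and in TRBV13-1 (-7.27 points, -16.5 to 0.571). TRBV26 and TRBV31, each with 6 and 1 clones, differed by 6.36 points (-1.59 to 14.9), and the joint name by -6.36 points (-17.4 to 4.15). TRBV31, at chr6:41557691-41558452, is the V gene that lies downstream of the constant regions and on the minus strand. Every interval among the named V genes included 0, so counting error was as large as the differences.

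**Figure D4:**
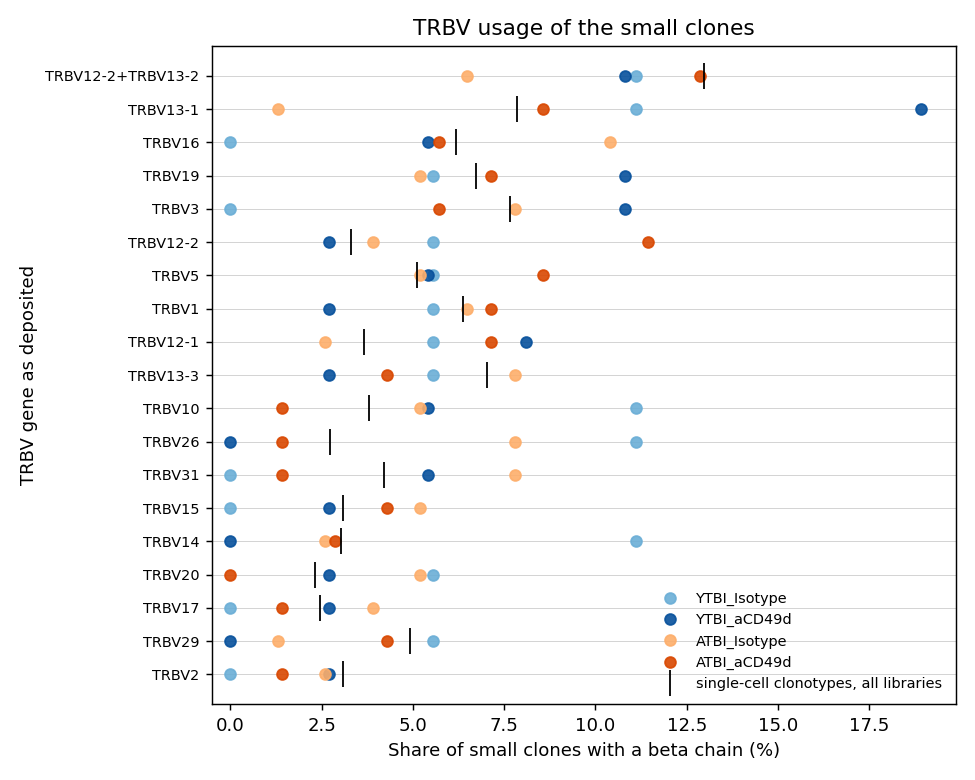
Share of small clones with a beta chain (x axis, percent) that used each TRBV gene (y axis, as named in the tables) in the 4 libraries, with the share of single-cell clonotypes of all libraries as a black line. The libraries scatter on both sides of the line for most genes, with TRBV13-1 at 1.30% in ATBI_Isotype and 18.9% in YTBI_aCD49d.

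TRBJ2-7 (chr6:41543810-41543856) was the most frequent J segment of the small clones, in 5, 13, 17 and 12 of them, 47 in all (23.3%, 17.6 to 29.7%). Among single-cell clonotypes it was in 18.9% (16.9 to 21.0%), within the interval of the small clones. TRBJ2-1 (chr6:41542754-41542803) came next with 4, 5, 8 and 7 clones (11.9%, against 10.7% of single-cell clonotypes). At 262 cells the expected number of small clones with TRBJ2-7 was 5, 4.85, 3.32 and 3.62. The J segments lie in clusters upstream of each constant region, and small clones used the TRBJ2 cluster in 16 of 18 (88.9%), 29 of 37 (78.4%), 41 of 77 (53.2%) and 45 of 70 (64.3%). The aged difference was -11.0 points (-27.2 to 5.82). Single-cell clonotypes used this cluster in 67.8, 67.1, 59.8 and 61.0% in the same order. Over all libraries the shares were 64.9% of small clones and 63.4% of single-cell clonotypes. TRBJ1-4, picked after its values were seen, was in 12 small clones in ATBI_Isotype, 2 in ATBI_aCD49d and 1 in each young library. Its aged difference of 12.7 points (2.58 to 23.1) was the only one among the 12 TRBJ segments whose interval left out 0. With ATBI_aCD49d thinned to 1024 cells, 1.83 small clones with TRBJ1-4 were expected there against the 12 of ATBI_Isotype. At 262 cells per library 1, 0.903, 0.990 and 1.04 were expected, with no difference between the aged libraries, and these include deposited clones of 10 or more cells that fell below 10.

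On the alpha side, 192 small clones had a chain, and 43 TRAV genes of 16 families were used in ATBI_Isotype, 42 of 16 in ATBI_aCD49d, 31 of 13 in YTBI_aCD49d and 12 of 9 in YTBI_Isotype. The alpha locus on chromosome 14 holds duplicated V genes, so names are grouped by family. TRAV12 led with 4, 7, 8 and 10 clones (15.1% of 192, against 10.6% of single-cell clonotypes). TRAV6 followed with 1, 8, 10 and 4 (12.0%, against 11.0%) and TRAV7 with 1, 5, 6 and 7 (9.90%, against 12.1%). The aged difference was -3.23 points for TRAV12 (-15.5 to 8.95) and 8.29 points for TRAV6 (-2.71 to 19.4). Among J segments, TRAJ22 (chr14:54197248-54197307) was in 4, 2, 5 and 4 clones, TRAJ23 in 0, 4, 4 and 5, and TRAJ9 in 2, 2, 5 and 1. Over all libraries these were 7.81, 6.77 and 5.21% of small clones. Among single-cell clonotypes the shares were 6.62, 3.95 and 2.32%, with overlapping intervals. No TRAJ segment exceeded 15 of the 192 clones.

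Pairings were spread over many combinations, with none in more than 4 small clones of 1 library. Small clones with a beta used 18 and 31 V and J combinations in YTBI_Isotype and YTBI_aCD49d and 62 and 53 in ATBI_Isotype and ATBI_aCD49d, and the most clones with 1 combination were 1, 4, 3 and 3. TRBV19 with TRBJ2-7 was the most frequent, in 0, 4, 3 and 1 clones (8 in all), followed by TRBV13-1 with TRBJ2-7 in 5. Pairs of a TRBV gene with a TRAV family numbered 16, 30, 64 and 60 among 16, 36, 70 and 68 small clones with both chains. The most frequent of these pairs, TRBV13-1 with TRAV12, TRBV13-1 with TRAV7 and TRBV19 with TRAV12, were found in 4 clones each. TRAV11 with TRAJ18 (5 clones) and TRAV7D-2 with TRAJ33 (3 clones) were the only alpha combinations in more than 2 small clones.

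Mean CDR3 length of small clones lay within 1 amino acid in the 4 libraries, for either chain. The mean beta length was 14.1 ± 1.32 amino acids (SD over clones, n = 18) in YTBI_Isotype, 14.03 ± 1.42 (n = 37) in YTBI_aCD49d, 13.9 ± 1.45 (n = 77) in ATBI_Isotype and 14.1 ± 1.21 (n = 70) in ATBI_aCD49d. The beta chains ran from 11 to 17 amino acids, and lengths of 13 to 15 made up 72.2, 73.0, 70.1 and 78.6%. Single-cell clonotypes had a mean of 14.001. The alpha mean was 13.6, 13.7, 13.5 and 13.7 amino acids. A length of 12 was found in 12.5, 25, 28.2 and 13.04% of the alphas and a length of 13 in 37.5, 22.2, 12.7 and 30.4%, so Isotype and aCD49d differed in opposite directions in the young and the aged pair. These lengths were picked after their values were seen, and the differences were not tested. Beta chains carried 11.1, 9.94, 9.48 and 10.1 bases on average that matched neither V nor J, and the alpha chains, which have no D segment, carried fewer, with 2.56, 2.69, 2.44 and 2.54. At 262 cells the expected mean beta length was 14.1, 14.05, 13.8 and 14.3 amino acids.

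**Figure D5:**
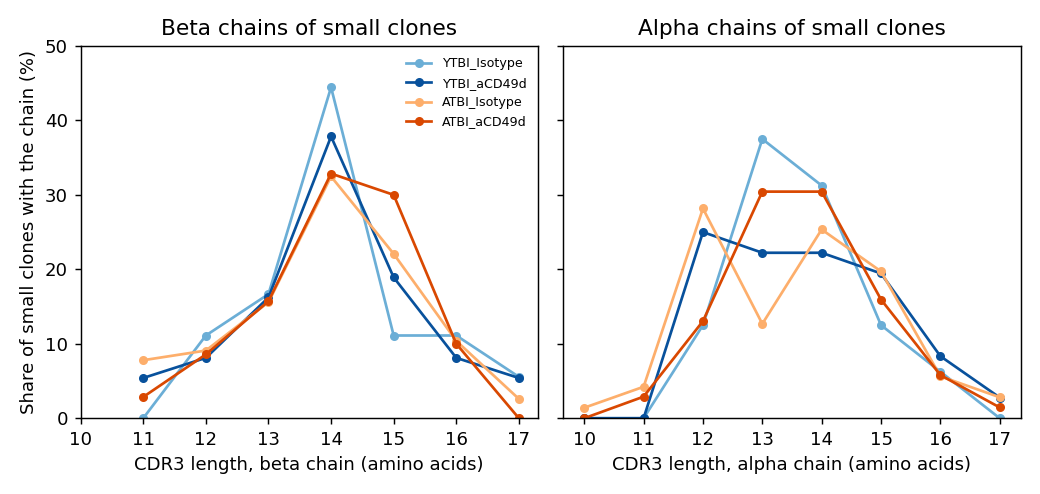
Share of small clones with the chain (y axis, percent) by CDR3 length in amino acids (x axis), for beta chains on the left and alpha chains on the right. The beta curves of the 4 libraries peak at 14 amino acids. The alpha curves of YTBI_aCD49d and ATBI_Isotype peak at 12, and that of ATBI_Isotype dips at 13.

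A beta chain, taken as its V gene and CDR3 nucleotides, was rarely shared by a small clone and another clonotype. This happened for 3 sequences in 5 of the 204 small clones (2.45%), all within ATBI_aCD49d, and in none with a clone of 10 or more cells. How often single-cell clonotypes or larger clones shared a beta chain was not counted, so the share is not set against theirs. At 262 cells 1.33 such sequences were expected in ATBI_aCD49d. Capitals again mark the bases outside the germline V and J, and the sequences are given because each recurs letter for letter.
TRBV3, ATBI_aCD49d clonotypes 26, 65 and 427: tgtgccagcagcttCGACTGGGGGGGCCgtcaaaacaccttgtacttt
TRBV12-1, ATBI_aCD49d clonotypes 28 and 77: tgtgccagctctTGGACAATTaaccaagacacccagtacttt
TRBV17, ATBI_aCD49d clonotypes 57 and 318: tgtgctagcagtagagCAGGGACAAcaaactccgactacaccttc

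The other chain varied among them. Clonotype 26 (5 cells) and clonotype 427 (1 cell) had the same TRAV16N alpha nucleotides, while clonotype 65 (2 cells) had no alpha. Clonotypes 57 (2 cells) and 318 (1 cell) also had the same alpha nucleotides, with TRAV16N and TRAJ4. Clonotypes 28 (4 cells, the beta in 2 of them) and 77 (2 cells) had different alphas, TRAV9-4 with TRAJ24 and TRAV6-6 with TRAJ23, the only different alphas among these 3 sequences.

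Names of V genes separated further matches. Without the V name the count rose to 6 sequences in 8 small clones, and in the 3 added cases the small clone bore the joint name TRBV12-2+TRBV13-2 and its partner, a single cell, the name TRBV13-2. In ATBI_aCD49d, clonotypes 73 and 456 and clonotypes 80 and 462 also had the same alpha nucleotides, and in YTBI_aCD49d clonotypes 9 and 385 lacked an alpha on at least 1 side. Matching by V gene and translated CDR3 gave 7 sequences in 9 small clones, 2 of them across libraries.

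In 3 small clones the whole receptor, both chains translated, recurred in a single cell with other nucleotides. YTBI_Isotype clonotype 8 (3 cells, TRBV12-1 and TRAV10N with TRAJ22) matched ATBI_Isotype clonotype 428, and ATBI_aCD49d clonotype 19 (6 cells, TRBV5 and TRAV7-4 with TRAJ33) matched YTBI_aCD49d clonotype 205. ATBI_Isotype clonotype 10 (8 cells, TRBV31 and TRAV7N-4 with TRAJ31) matched clonotype 91 of the same library. They are shown because the nucleotides differ while the translation is the same. Here capitals mark the bases that differ within each pair.
YTBI_Isotype clonotype 8 beta: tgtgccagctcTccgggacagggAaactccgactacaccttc
ATBI_Isotype clonotype 428 beta: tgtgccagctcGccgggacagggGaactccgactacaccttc
YTBI_Isotype clonotype 8 alpha: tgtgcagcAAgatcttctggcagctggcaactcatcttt
ATBI_Isotype clonotype 428 alpha: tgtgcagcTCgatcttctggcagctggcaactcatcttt
ATBI_aCD49d clonotype 19 beta: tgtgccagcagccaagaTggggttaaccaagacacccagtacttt
YTBI_aCD49d clonotype 205 beta: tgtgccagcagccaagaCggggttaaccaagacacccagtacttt
ATBI_aCD49d clonotype 19 alpha: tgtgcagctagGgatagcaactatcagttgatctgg
YTBI_aCD49d clonotype 205 alpha: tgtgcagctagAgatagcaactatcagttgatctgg
ATBI_Isotype clonotype 10 beta: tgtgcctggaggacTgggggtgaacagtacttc
ATBI_Isotype clonotype 91 beta: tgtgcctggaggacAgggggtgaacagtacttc
ATBI_Isotype clonotype 10 alpha: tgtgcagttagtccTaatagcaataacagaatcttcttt
ATBI_Isotype clonotype 91 alpha: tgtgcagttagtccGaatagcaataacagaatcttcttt

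The pairs differed at 2 of 42 beta and 2 of 39 alpha bases, at 1 of 45 and 1 of 36, and at 1 of 33 and 1 of 39. Such a partner was found for 3 of 190 small clones with both chains (1.58%, 0.327 to 4.54%), 7 of 1122 single-cell clonotypes (0.624%, 0.251 to 1.28%) and 0 of 21 larger clones. The intervals overlapped. A partner with the same nucleotides in both chains, always in the same library, was found for 4 of 190 small clones (2.11%, 0.577 to 5.30%), 15 of 1122 single-cell clonotypes (1.34%, 0.750 to 2.20%) and 5 of 21 larger clones (23.8%, 8.22 to 47.2%), and the tables list those as separate clonotypes. Between libraries, 1 cell barcode was shared, by ATBI_Isotype and ATBI_aCD49d, and it belonged to a small clone in at least 1 of them.

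A group of small clones with 1 alpha translation, picked after its values were seen, had closely related beta chains. TRAV7D-2 (chr14:52683964-52684472) joined to TRAJ33 (chr14:54185358-54185414) with this translation occurred in 5 clonotypes, 3 of them small clones with 11 cells. The small clones were YTBI_aCD49d clonotypes 4 (6 cells, TRBV15) and 23 (2 cells, TRBV13-1) and ATBI_Isotype clonotype 37 (3 cells, TRBV19), and the other two were single cells of ATBI_Isotype with TRBV15. Their chains are shown for the likeness of the betas, with capitals for bases outside the germline V and J.
YTBI_aCD49d clonotype 4 alpha: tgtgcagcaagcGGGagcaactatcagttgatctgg
YTBI_aCD49d clonotype 4 beta: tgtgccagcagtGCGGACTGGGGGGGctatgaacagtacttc
YTBI_aCD49d clonotype 23 alpha: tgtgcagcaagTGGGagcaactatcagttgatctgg
YTBI_aCD49d clonotype 23 beta: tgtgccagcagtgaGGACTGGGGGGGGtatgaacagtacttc
ATBI_Isotype clonotype 37 alpha: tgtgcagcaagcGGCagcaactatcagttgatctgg
ATBI_Isotype clonotype 37 beta: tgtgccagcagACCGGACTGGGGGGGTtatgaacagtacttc

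In all 5 clonotypes a beta of 14 amino acids with TRBJ2-7 ended in the same 9 residues, and the alphas had 4 distinct nucleotide sequences. The single cells, clonotypes 227 and 286, had the same alpha and the same beta nucleotides, so the 5 clonotypes held 4 distinct receptors. In the whole series, 7 of 1649 clonotypes with a beta (0.424%) had that ending, and 2 of those had other alphas. Clonotype 37 also had a second beta, with TRBV3, in 1 of its 3 cells, and clonotype 227 one with TRBV29. The group spans a young and an aged library and both antibodies, and with 13 cells in all no library can be set above another.

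The invariant alpha chain of natural killer T cells, TRAV11 (chr14:53519303-53519859) joined to TRAJ18 (chr14:54200777-54200842), occurred in 5 small clones, 2 in ATBI_Isotype and 3 in ATBI_aCD49d, each of 2 cells. Natural killer T cells recognise lipids on CD1d, and because many separately formed cells carry almost the same alpha, the beta and the nucleotides tell their clones apart. These 5 were 2.60% of 192 small clones with an alpha (0.851 to 5.97%), against 106 of 1164 single-cell clonotypes (9.11%, 7.52 to 10.9%) and 0 of 21 larger clones. The intervals of small clones and single cells did not overlap over the libraries together, but they overlapped within each. Of all small clones and all single-cell clonotypes, 2.56% (0.312 to 8.96%) and 5.09% (3.09 to 7.84%) carried it in ATBI_Isotype, and 4.23% (0.880 to 11.9%) and 7.66% (5.39 to 10.5%) in ATBI_aCD49d. The alphas are shown because 4 of the 5 have the same translation, with any base outside the germline V and J in capitals.
ATBI_Isotype clonotype 82: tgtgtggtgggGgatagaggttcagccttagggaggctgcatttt
ATBI_Isotype clonotype 85: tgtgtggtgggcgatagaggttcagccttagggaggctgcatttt
ATBI_aCD49d clonotype 64: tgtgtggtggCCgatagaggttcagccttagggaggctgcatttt
ATBI_aCD49d clonotypes 70 and 78: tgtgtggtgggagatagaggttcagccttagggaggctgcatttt

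Clonotypes 82, 85, 70 and 78 shared their translation with 107 clonotypes in all, and clonotype 64 had another, found in 4. Clonotypes 85, 70 and 78 had betas with the joint TRBV12-2+TRBV13-2 name, clonotype 64 had TRBV13-2 in 1 of its cells, and clonotype 82 had TRBV1. The alpha was recovered in both cells of clonotypes 64 and 78 and in 1 cell of the others. The deposited evidence columns for natural killer T or mucosal-associated invariant T receptors were filled for 62 of 204 small clones (30.4%) and 578 of 1467 single-cell clonotypes (39.4%). That is more clonotypes than carried TRAV11 with TRAJ18, and what filled the columns was not examined. By library the share of small clones with filled columns was 33.3, 35.1, 23.1 and 35.2%.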

How the data were processed

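TCR libraries of 4 groups were analysed, 1 library each. The authors aligned TCR reads to mm10 and assembled chains and clonotypes with Cell Ranger, listed as version 7.2.0 in the submitters' processing notes. The deposited chain tables give reads and UMIs as counts for each assembled chain. The deposited clonotype tables list the cells per clonotype both as counts and as the fraction they form of their library. Every column used belonged to a labelled sample.

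From these, cells were assigned to their deposited clonotype, and clonotypes of 2 to 9 cells were called small. The chain found in most cells represented a clone. Chains were placed on GRCm38 segments of the GENCODE annotation by the bases just before and just after the CDR3. This succeeded for 192 of 202 beta (95.0%) and 192 of 192 alpha chains of small clones. The V and J ends of CDR3 were then compared base by base with those segments. Expected values at equal cell number came from the hypergeometric distribution, without resampling. The scripts were tested on simulated data. The number of cells, 262 to 1123 per library, limits the precision, and intervals cover counting error alone. Python 3.11.15, pandas 2.3.3, scipy 1.17.1 and biopython 1.88 were used.

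The members, lists and rules were chosen with earlier results of these data known. Named were the 3 largest small clones of each library, drawn on for examples, the 3 TRBV, 2 TRBJ, 3 TRAV families and 3 TRAJ with most small clones (ties kept), the 3 TRBV with the largest aged difference among those with at least 5 small clones in either aged library (ties kept), and beta chains found in more than 1 clonotype. Other names were chosen after their values were seen. Alternatives were other clonotype definitions, sets of cells, size limits, cell numbers and matching rules. Receptors were not filtered by transcriptome.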

Additional observations from a re-analysis of the deposited data

Results flagged for a closer look

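For several values the difference between Isotype and aCD49d had opposite signs in the aged and the young libraries. With 1 library per group whether the ages differ was not tested. All values below are Isotype minus aCD49d, the aged pair first. The share of small clones among clonotypes was 3.78 and -0.148 points, among cells outside clones of 10 or more 3.41 and -1.33 points, and among cells at equal cell number -3.62 and 4.17 points. The expected number of small clones at equal cell number was -2.33 and 3.02 clones. The share of small clones with 2 cells was 1.10 and -1.20 points. Small-clone cells with both chains were -11.5 and 2.94 points, and the aged interval of this value (-19.4 to -3.44) left out 0. Among beta V genes, TRBV12-2+TRBV13-2 was -6.36 and 0.3003 points, TRBV12-2 -7.53 and 2.85, TRBV16 4.68 and -5.41, TRBV3 2.08 and -10.8, and TRBV31 6.36 and -5.41. TRBJ2-7 was 4.94 and -7.36 points. For the alpha chain, TRAV12 was -3.23 and 5.56 points and TRAV6 was 8.29 and -16.0 points. Mean beta CDR3 length was -0.151 and 0.0841 amino acids. The young segment values rest on 18 and 37 small clones for the beta chain and 16 and 36 for the alpha chain.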

How the results depend on the processing

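No paired analysis was possible because there is 1 library per group, and for the same reason no replicate could be left out. Of 52 values for the share of cells under other settings, 38 stayed within the interval of the deposited share. With clones of 3 to 9 cells the shares were 11.5, 11.6, 12.1 and 13.001% (YTBI_Isotype, YTBI_aCD49d, ATBI_Isotype, ATBI_aCD49d) and the clones 8, 16, 31 and 29, by construction fewer. With 2 to 4 cells the last 3 shares were 12.1, 16.9 and 11.8%, the share with 2 cells was 75% in ATBI_aCD49d and the aged Isotype minus aCD49d difference was 5.05 points. With 2 to 19 cells the aged shares were 26.9 and 26.7%, and aged minus young 7.77 points under Isotype and 6.09 under aCD49d. Thinned to 262 cells, the shares were 14.9, 16.3 and (ATBI_aCD49d) 19.9%, the clones 14.98, 15.3 and 17.6, and the aged difference turned to -3.62 points and aged minus young under Isotype to -2.79. Thinned within age, YTBI_aCD49d had the same 14.9% and 14.98 clones. Without clonotypes carrying iNKT or MAIT evidence, the aged shares were 26.9 and 18.2%, the clones 24 in YTBI_aCD49d and 46 in ATBI_aCD49d, the aged difference 8.74 points and aged minus young under Isotype 8.54 points. Defined by V, J and C genes with CDR3 nucleotides, YTBI_aCD49d had 15.1% and aged minus young under aCD49d was 7.36 points, and by CDR3 amino acids of both chains it was 5.71. The aged Isotype minus aCD49d difference also turned under both definitions (-2.62 and -2.15 points) and with 3 to 9 cells (-0.892), and aged minus young under aCD49d turned without the evidence (-0.792) and with 2 to 4 cells (-0.288). The young difference took both signs, from -1.58 to 4.28 points. With at least 2 UMIs per chain, clones of 2 cells were 71.2% in ATBI_Isotype. Small clones with a repeated beta, 5 as reported, were 8 without the V gene, 9 by amino acids with the V gene and 14 with at most 1 mismatch to any library (10 within a library). Where the construction does not give the cause, the cause was not tested. Shares of the named segments and CDR3 lengths moved by less than their interval or spread when each cell was counted, as did the segments with clones of more than 1 such chain left out. The share of small-clone cells with both chains was lowest in ATBI_Isotype, which also had the fewest UMIs per cell, and the part of depth was not tested.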
